A study of Arabidopsis thaliana with 30 samples.

Results

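Explants of Arabidopsis thaliana that lie on callus inducing medium change slowly from organs into a mass of dividing cells, and the results below describe the late part of that change in aerial explants, from 48 h to 96 h on the medium. The comparison set the 3 arrays of aerial explants taken at 96 h against the 3 taken at 48 h, which are 6 of the 30 arrays of the series. All plants were wild type Col-0 seedlings, 10 days old when cut, grown on solid MS medium at 22 °C under days of 16 h light and nights of 8 h. The aerial explants were the organs above the root, and the root explants used here as a second series were root segments of seedlings grown alike, at the same times (0, 12, 24, 48 and 96 h, 3 arrays each). All explants from 12 h on had been cut and laid on the medium, and explants kept off it were not analysed here, so time in culture, wounding and medium cannot be told apart. What the medium contained and at what time of day tissue was taken is not stated in the labels. The labels call the 3 arrays of a group biological replicates. The p-values set a change against the spread between arrays within groups, pooled over all 30 arrays.

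As background, callus on such media is known to form through a programme that resembles the start of a lateral root, also in leaves and cotyledons. Auxin in the medium acts through ARF transcription factors and their Aux/IAA repressors on LBD factors, cells next to the vasculature divide, and the growing tissue expresses regulators otherwise found in root meristems, among them the PLETHORA group of AP2 factors to which BBM belongs. Leaves and cotyledons, where such explants start, are built around chloroplasts, whose photosynthetic apparatus is made from nuclear genes, with imported proteins, and from genes of the plastid's own genome.

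Values are MAS5 signals, the fluorescence of a probe set on an array scaled to a common mean, and they are not per length, so levels are compared only within a gene. Changes are differences of log2(signal + 22), given with their standard error, and a probe set was called where limma's two-sided test with Benjamini-Hochberg adjustment over the 16765 probe sets tested gave an adjusted p under 0.05. Folds are those changes as ratios, which understate the change of weak signals.

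The 6 arrays were alike in scale, with median signals of 162.6 to 182.25 at 48 h and 164.3 to 176.95 at 96 h. Replicate 3 at 48 h stood apart. On the first principal component of all arrays, on which aerial and root arrays lay apart, it lay at 61.5 and the other 48 h arrays at 87.1 and 81.2, between the 24 h arrays (101.0 to 106.8) and the 96 h arrays (33.0 to 38.9). It correlated with the other 48 h arrays at 0.950 and 0.948, against 0.961 between those 2 and 0.959 to 0.975 among the 96 h arrays. Leading counts are therefore also given without it. The label of the tissue held: the light-harvesting and photosystem genes that were measured gave summed signals of 41481 to 73632 at 48 h and 16177 to 23289 at 96 h, against 466 to 599 in root explants at 96 h. In whole explants, fewer cells of a type and less RNA per cell cannot be told apart.

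**Figure D1:**
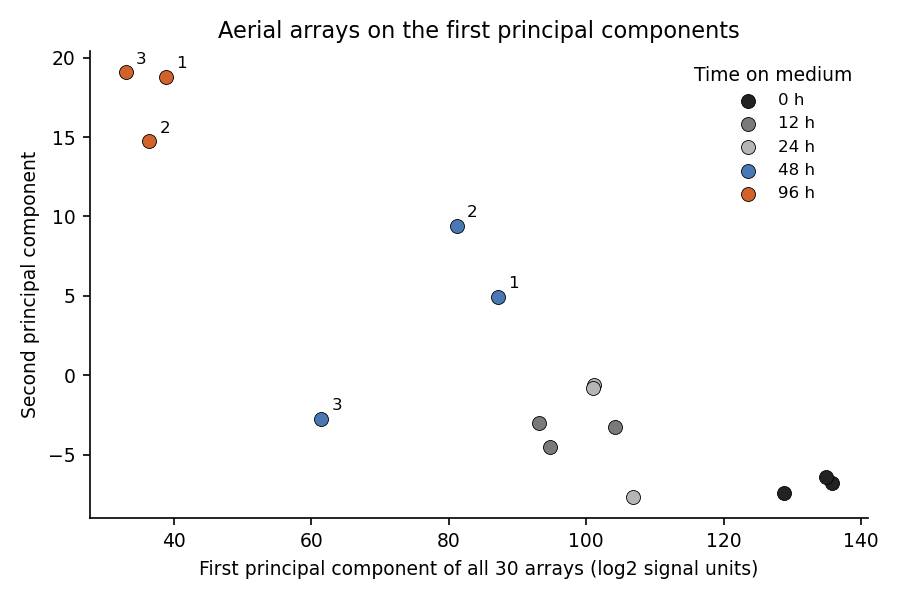
Positions of the 15 aerial arrays on the first (horizontal) and second (vertical) principal components of all 30 arrays, in units of log2(signal + 22), coloured by time, with the replicate number beside the arrays at 48 h and 96 h. The 3 aerial arrays at 96 h lie together at 33.0 to 38.9 on the first component, while aerial replicate 3 at 48 h lies at 61.5, nearer to them than the other 48 h arrays at 81.2 and 87.1.

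From 48 h to 96 h, 1302 probe sets changed in aerial explants, 7.77% of those tested, with 629 higher (3.75%) and 673 lower (4.01%). At least 2-fold changes were found for 335 of the higher (2% of all tested) and 446 of the lower (2.66%). The median change over all probe sets was 0.022. Without replicate 3 at 48 h 1589 probe sets were called, but 645 without replicate 1 and 683 without replicate 2 at 48 h, and 846, 808 and 770 without replicate 1, 2 or 3 at 96 h. The preceding step, from 24 h to 48 h, shares the 48 h arrays and had 729 called (4.35%), 493 higher (2.94%) and 236 lower (1.41%). With each array centred on its median that split became 322 higher and 385 lower of 707, a shift of -0.134 in the median of all probe sets, whereas the late step gave 628 higher and 625 lower. The preceding step's count fell to 247 without replicate 3 at 48 h, to 369 without replicate 2 at 48 h and to 382 without replicate 2 at 24 h. Genes are named below by a rule on size, and only genes whose 48 h and 96 h values do not overlap could be named for size. By that condition alone 14.8% of all probe sets were higher and 12.7% lower.

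The genes with the largest rises joined a root and embryo regulator, wall and defence proteins, and proteins of the vacuole and of stress responses. BBM (AT5G17430), BABY BOOM, an AP2 factor of root meristems and embryos that induces somatic embryos when overexpressed, gave signals of 66, 38 and 60.3 at 48 h and 231, 286 and 285 at 96 h. Every 96 h array was above every 48 h array, and BBM rose 3.8-fold (log2 change 1.93 ± 0.417, adjusted p = 0.00382). AGL21 (AT4G37940), a MADS factor known from root development, gave 10.3, 27 and 6.1 at 48 h and 80.7, 87.5 and 52.1 at 96 h. These are weak signals near the pseudocount, and the rise of 1.41 ± 0.267 (adjusted p = 0.00109) became 2.47 with a pseudocount of 1 and 0.81 with 64, called in both. BBM was weak at 48 h too. With a pseudocount of 1 its change was larger, 2.30, with adjusted p = 0.116, where the spread used is that of all 30 arrays.

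The largest change among these genes was that of ARPN (AT2G02850), plantacyanin, a small secreted copper protein. Its signals were 1285, 679 and 1367.5 at 48 h, then 5814, 4350.1 and 4847 at 96 h. The groups are far apart, and ARPN rose 4.6-fold (log2 change 2.2 ± 0.388, adjusted p = 0.000573), after a change of 0.37 in the preceding step (adjusted p = 0.671). OSM34 (AT4G11650), osmotin, a thaumatin-like defence protein, gave 1555, 626 and 2410.3 at 48 h and 3773, 8208 and 6689 at 96 h. Replicate 2 at 48 h was the lowest and replicate 2 at 96 h the highest, and OSM34 rose 4.39-fold (log2 change 2.13 ± 0.419, adjusted p = 0.0015), having risen already in the preceding step (1.66, adjusted p = 0.0203). XTH20 (AT5G48070), an enzyme that cuts and rejoins wall xyloglucan, gave 389, 527 and 695 and then 1758, 1321 and 1515, a rise of 1.5 ± 0.333 (adjusted p = 0.00463). IAA30 (AT3G62100), of the Aux/IAA family that represses auxin responses, gave 149, 203 and 167.5 at 48 h, then 485, 486.5 and 474 at 96 h. The 96 h arrays were nearly equal, and IAA30 rose 2.6-fold (log2 change 1.38 ± 0.334, adjusted p = 0.00927), though without replicate 1 at 48 h the adjusted p was 0.0508.

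Among the other large rises were a lectin, a metallothionein and a protease. JAL33 (AT3G16450), a jacalin-related lectin, which binds sugars, gave 3658, 3211 and 4338 at 48 h and 8954, 11076 and 10636 at 96 h and rose by 1.45 ± 0.307 (adjusted p = 0.00294). DI21 (AT4G15910), named drought-induced, rose in the late step by 1.44 ± 0.228 (adjusted p = 0.000159), from 1247, 1566 and 2126 to 5046, 3396 and 4999.6, and its preceding step was 1.47 (adjusted p = 0.00015). MT1C (AT1G07610), a metallothionein that binds metal ions, rose from 3366, 3562 and 5112 to 11719.7, 9475 and 8812 (log2 change 1.33 ± 0.275, adjusted p = 0.00241). For MT1C and for ALPHA-VPE (AT2G25940), a vacuolar cysteine protease, the preceding step was the larger: 2.77 for MT1C (adjusted p = 9.2e-08) and 3.83 for ALPHA-VPE (adjusted p = 4.48e-08), against 1.33 and 1.36 in the late step. ALPHA-VPE went from 1217, 1400.4 and 967 to 2405, 4303 and 2775.5, and its late call (adjusted p = 0.0139) was lost without replicate 2 at 96 h, the highest array (1.11, adjusted p = 0.0988).

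The other genes named for a large rise were UGT73B4 (AT2G15490), a glycosyltransferase of small molecules (1.44 ± 0.301, adjusted p = 0.00274), PDF2.5 (AT5G63660), of the plant defensins (1.49, adjusted p = 0.0168), IQD16 (AT4G10640), an IQ-domain protein of the calmodulin-binding kind (1.37, adjusted p = 0.0399), and HHP2 (AT4G30850), a heptahelical membrane protein (1.35, adjusted p = 0.0191). Of these, IQD16 lost its call when any 1 of the 6 arrays was left out (adjusted p 0.066 to 0.139). PDF2.5 lost it without replicate 2 at 48 h (1.33, adjusted p = 0.0954) and without replicate 1 or 3 at 96 h (adjusted p = 0.0595 and 0.0582), and HHP2 without replicate 2 at 48 h (1.32, adjusted p = 0.069) or at 96 h (0.98, adjusted p = 0.15). With a pseudocount of 1, the calls of PDF2.5 (adjusted p = 0.221), IQD16 (0.19) and ALPHA-VPE (0.142) were lost.

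The largest falls were mostly of chloroplast proteins. CaS (AT5G23060), the calcium sensing receptor, a thylakoid membrane protein, gave 2128, 1393 and 1029 at 48 h, then 369.6, 183 and 201 at 96 h. The highest 96 h array was below the lowest 48 h array, and CaS fell to a level 5.64-fold lower (log2 change -2.50 ± 0.36, adjusted p = 6.23e-05). HPR (AT1G68010), the peroxisomal hydroxypyruvate reductase of photorespiration, gave 3593, 3035 and 2028 at 48 h and 512, 848 and 447.5 at 96 h, 4.7-fold lower (log2 change -2.23 ± 0.374, adjusted p = 0.000318). ECS1 (AT1G31580) went from 2479, 2389 and 1616.5 to 365, 481 and 634 (log2 change -2.09 ± 0.326, adjusted p = 0.000145). AT1G52220, described as CURVATURE THYLAKOID 1C, a protein family that bends thylakoid membranes, went from 1358, 1149 and 825 to 252, 216.5 and 319 (log2 change -1.98 ± 0.312, adjusted p = 0.000157). In CaS, HPR, ECS1 and AT1G52220 replicate 3 at 48 h was the lowest 48 h array, the array nearest to 96 h on the first component.

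The levels at 48 h were already below those at 0 h. At 0 h the mean signals were 9250 ± 2388 for CaS, 17460 ± 3115 for HPR and 19824 ± 5623 for ECS1 (SD, n = 3). Among the 14 genes named for the largest falls only TAPX (AT1G77490), the thylakoid ascorbate peroxidase that removes hydrogen peroxide, also passed the test in the preceding step (-1.29, adjusted p = 0.0152), and its late change was -1.67 ± 0.311 (adjusted p = 0.00097). The other 13 had changes of -1.24 to -0.16 in that step. A test of the late against the preceding step was not made, because the 48 h arrays enter both.

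The remaining genes of the 14 were again of plastids for the most part. TROL (AT4G01050), a thylakoid rhodanese-like protein that anchors ferredoxin-NADP reductase, fell by 1.83 on the log2 scale (adjusted p = 0.000855), and NdhL (AT1G70760), a subunit of the chloroplast NDH complex of cyclic electron flow, by 1.63 (adjusted p = 0.00108). THIC (AT2G29630), which makes the pyrimidine part of thiamine in the plastid, fell by 1.69 (adjusted p = 0.00361). GSTU18 (AT1G10360), a glutathione transferase, changed by -1.70 (adjusted p = 0.00234) and CIL (AT4G25990) by -1.69 (adjusted p = 0.00515), the latter not called without replicate 2 at 48 h (-1.39, adjusted p = 0.0549). With a pseudocount of 1, ECS1 (adjusted p = 0.127), TROL (0.108), NdhL (0.0637) and THIC (0.0926) missed the threshold. So did GSTU18 (0.129), CIL (0.0928) and TAPX (0.0552), while CaS, HPR and AT1G52220 kept it. All changes kept their sign, and most moved little in size, as ECS1 to -2.14 and TROL to -1.87. CIL moved most, to -2.73. The spread in this test is pooled over all 30 arrays, so root arrays with weak signals enter it too.

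**Figure D2:**
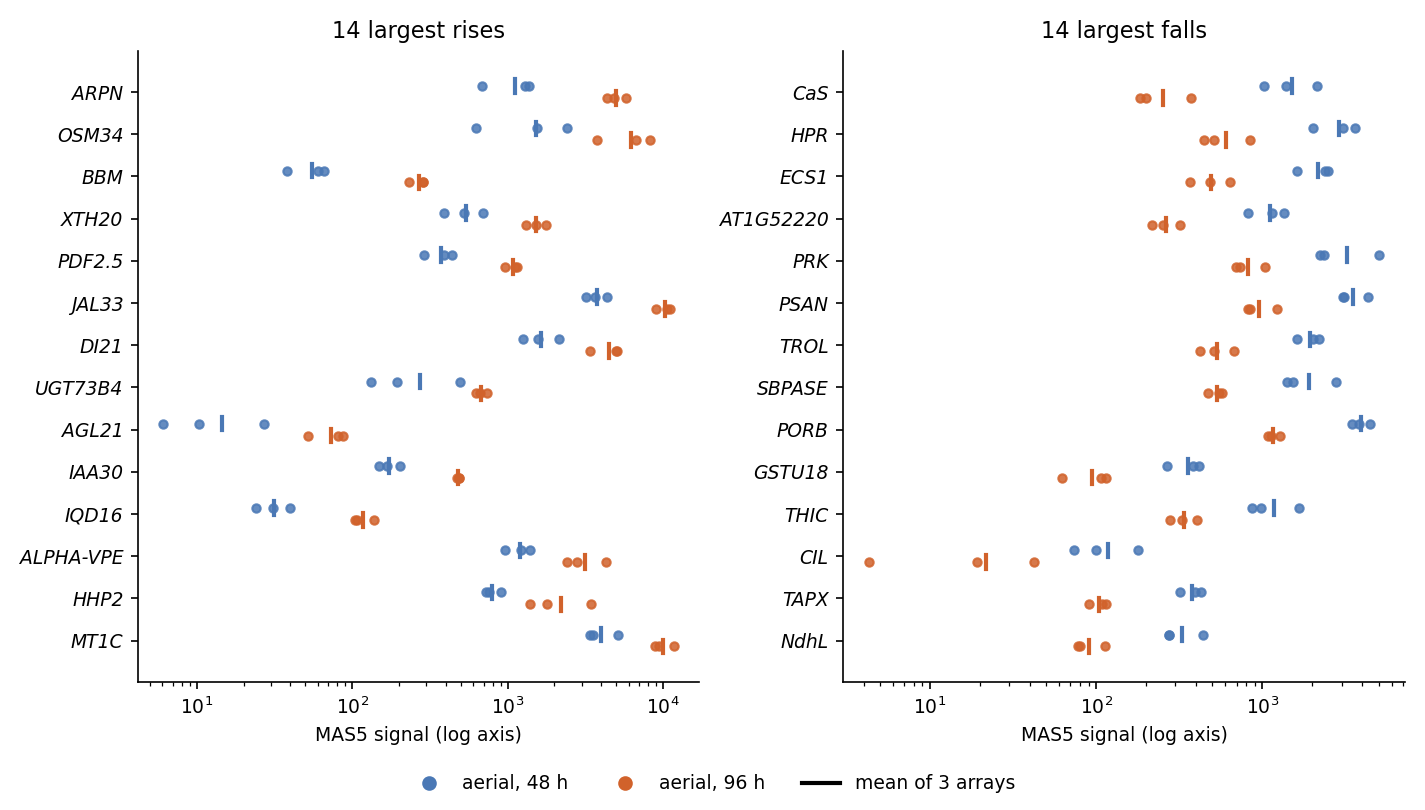
Signal (log axis) in each aerial array at 48 h and 96 h for the genes named for the largest rises and falls; each point is 1 array, 3 a time, and each bar their mean. BBM and ARPN are higher and CaS, HPR and ECS1 lower in every 96 h array than in any 48 h array, as the rule for naming them requires.

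Genes of photosynthesis fell as groups. Of 41 loci listed for the photosystems, antenna and chloroplast ATP synthase, 7 were measured and all 7 fell, against 4.01% of all probe sets, with a median change of -1.43 (range -1.85 to -1.17) beside 0.022 over all. They were PSAN (AT5G64040) of photosystem I (4339, 3095.5 and 3069, then 1218.5, 819 and 843, log2 change -1.85 ± 0.388, adjusted p = 0.00286), PSAE-1 (AT4G28750) of the same photosystem (-1.63, adjusted p = 0.00149), the antenna proteins LHCB4.1 (AT5G01530) (-1.53, adjusted p = 0.000145) and LHCB4.2 (AT3G08940) (-1.39, adjusted p = 0.0209), PSBW (AT2G30570) (-1.43, adjusted p = 0.00121) and PSBY (AT1G67740) (-1.17, adjusted p = 0.00376) of photosystem II, and ATPC1 (AT4G04640), the gamma subunit of the ATP synthase (-1.29, adjusted p = 0.0273). In the preceding step the median of the same 7 was -0.72 with 1 called lower, PSBY, beside 1.41% of all probe sets. Their summed signal of 41481 to 73632 at 48 h and 16177 to 23289 at 96 h compares with 132646 to 186260 at 0 h. All 7 were again called without replicate 3 at 48 h, with a median of -1.64. Without replicate 1 at 48 h 4 were called: LHCB4.2 (-1.13, adjusted p = 0.136), ATPC1 (-1.11, adjusted p = 0.137) and PSBY (-0.85, adjusted p = 0.0556) were not. LHCB4.2 also lost its call without replicate 2 at 48 h (adjusted p = 0.0658) or replicate 2 or 3 at 96 h (0.0503 and 0.107), and ATPC1 without replicate 2 at 48 h (0.0611) or any 1 of the 96 h arrays (0.0588 to 0.101). With a pseudocount of 1, PSAN (-1.87, adjusted p = 0.101), LHCB4.2 (-1.39, 0.271) and ATPC1 (-1.29, 0.274) were not called.

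Genes of carbon fixation fell as well. Of 29 loci of the Calvin cycle and photorespiration 6 were measured, and 5 fell, against 4.01% of all probe sets, with a median of -1.56 for the 6. From 0 h to 12 h all 6 had fallen (median -1.87), where 13.8% of all probe sets were called lower, and the median of the step from 24 h to 48 h was -0.71. Besides HPR these were PRK (AT1G32060), phosphoribulokinase, which makes the CO2 acceptor, SBPASE (AT3G55800), sedoheptulose-bisphosphatase of the regeneration phase, RCA (AT2G39730), Rubisco activase, and the locus AT1G11860 of the photorespiration list. PRK went from 5045, 2349.8 and 2234 at 48 h to 689.8, 1036 and 735 at 96 h (log2 change -1.86 ± 0.41, adjusted p = 0.00452). Replicate 1 at 48 h was far above the other 48 h arrays, and without it the change was -1.48 with adjusted p = 0.0532. SBPASE changed by -1.74 ± 0.396 (adjusted p = 0.00581), RCA by -1.38 ± 0.238 (adjusted p = 0.000459) and AT1G11860 by -0.90 ± 0.203 (adjusted p = 0.00544). Without replicate 1 at 48 h SBPASE (-1.44, adjusted p = 0.0578) and AT1G11860 (-0.65, adjusted p = 0.0737) were also not called, which leaves 2 of the 6, HPR and RCA. With a pseudocount of 1 the changes were -1.88 for PRK (adjusted p = 0.223) and -1.78 for SBPASE (adjusted p = 0.209). The sixth locus, AT1G80380, gave -0.18 ± 0.354 (adjusted p = 0.818). The count stayed at 5 of 6 without replicate 3 at 48 h, with a median of -1.65.

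Of 17 loci of chlorophyll synthesis 5 were measured and 4 fell, against 4.01% of all probe sets, with a median of -1.12. PORB (AT4G27440), the light-dependent protochlorophyllide oxidoreductase, gave 4461, 3790.4 and 3482 at 48 h and 1083, 1130.3 and 1270.3 at 96 h (log2 change -1.73 ± 0.332, adjusted p = 0.00121). Its groups were well apart, and with a pseudocount of 1 the change was -1.75 with adjusted p = 0.0571. AT1G74470, geranylgeranyl reductase, which supplies the phytol tail, changed by -1.38 ± 0.219 (adjusted p = 0.00017), and CHLM (AT4G25080), which methylates magnesium-protoporphyrin, by -1.12 ± 0.235 (adjusted p = 0.0028). HEMB1 (AT1G69740), an early enzyme of the pathway, had overlapping values and a small change of -0.59 ± 0.167 (adjusted p = 0.0276), which lost its call without replicate 1 or 3 at 48 h (adjusted p = 0.177 and 0.073) or without replicate 1 or 2 at 96 h (0.166 and 0.0735). GSA1 (AT5G63570), glutamate-1-semialdehyde aminomutase, gave -0.49 (adjusted p = 0.109). Without replicate 3 at 48 h 3 of the 5 were called, with a median of -1.39. In the preceding step the median of the 5 was -0.65 with HEMB1 and GSA1 called lower, beside 1.41% of all probe sets. Among chloroplast genes named for the comparison with roots, PSB27 (AT1G03600) of photosystem II assembly and AT4G01150, described as CURVATURE THYLAKOID 1A, fell by 1.51 (adjusted p = 0.0019) and 1.49 (adjusted p = 4.68e-05).

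**Figure D3:**
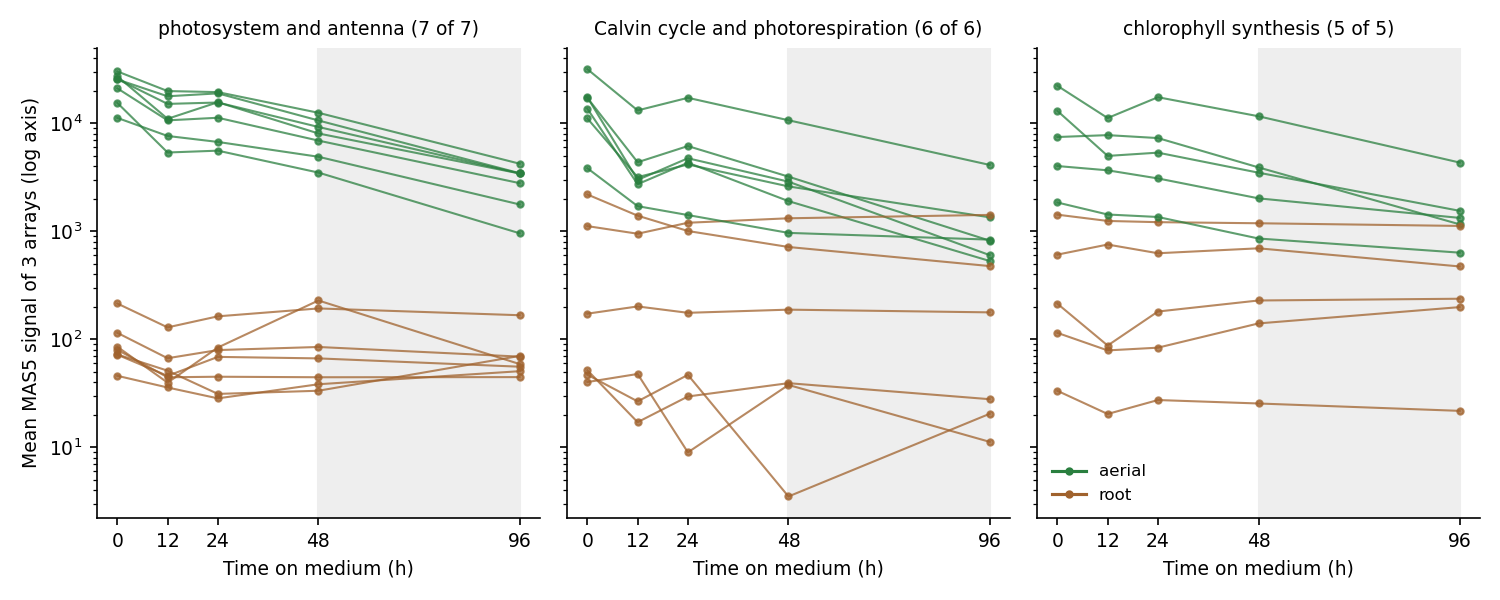
Mean MAS5 signal of 3 arrays (log axis) at 0, 12, 24, 48 and 96 h for each measured gene of the photosystem and antenna list (7), the Calvin cycle and photorespiration list (6) and the chlorophyll synthesis list (5), each line 1 gene in aerial (green) or root (brown) explants; the shaded band is the step from 48 h to 96 h. All aerial lines of the 3 lists go down within the band, and the aerial photosystem lines stay above every root line of that list.

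The only mesophyll marker measured was RCA, at 13163.5, 9142 and 9771 at 48 h and 3499.7, 5298 and 3577.5 at 96 h, so it falls with the photosynthesis lists. The phloem pair, SWEET11 (AT3G48740), a sucrose exporter, and OPS (AT3G09070), of phloem differentiation, summed to 4822 to 5891 at 48 h and 2978 to 3766 at 96 h. Neither passed the test (-0.69, adjusted p = 0.138 for SWEET11 and 0.36, adjusted p = 0.414 for OPS). The guard cell marker FMA (AT3G24140) gave 50 to 160 at 48 h and 71 to 122 at 96 h, the trichome marker TRY (AT5G53200) 17 to 55 and 2 to 26, and the endodermis marker GSO1 (AT4G20140) 66 to 117 and 83 to 122. The root hair expansins EXPA7 (AT1G12560) and EXPA18 (AT1G62980) summed to 40 to 94 at 48 h and 113 to 215 at 96 h, without a call (adjusted p = 0.514 and 0.374). No marker of the root cap, root stele and pericycle or xylem was measured, which does not show that these genes were silent. The part of a changed mix of cells in these falls was not tested.

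Genes of the plastid genome were set beside the nuclear ones. This list was added after values had been seen and is a description. Whether the labelling takes up plastid transcripts as it does nuclear ones was not tested, so a fall here is a fall of signal. Of 69 plastid-encoded probe sets 65 genes were measured, 18 fell and 0 rose by limma's test (40 had an unadjusted p under 0.05), against 4.01% of all probe sets called lower. The median change was -0.86, and 64 of the 65 were lower in sign, where 48% of all probe sets were. The exception was psaC, at a weak signal (log2 change 0.27 ± 0.486, adjusted p = 0.798). Their summed signal was 247905 to 306537 at 48 h and 148457 to 216656 at 96 h, against 404357 to 502128 at 0 h. From 0 h to 12 h 22 of the 65 had already been called lower (median -0.69), beside 13.8% of all probe sets, and no gene of the list passed the test in the preceding step, whose median was 0.17 (7 with an unadjusted p under 0.05). The nuclear photosystem genes had a median of -0.72 in that step, and the difference between the lists was not tested. Replicate 2 had the lowest median log2 level of the plastid list at 24 h (9.91, the others 10.808 and 10.619). At 48 h replicate 2 had the highest (11.163, the others 10.448 and 10.667), so the sign of the 0.17 is uncertain.

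Within the plastid list each of the 4 classes below had calls, but the shares were uneven, beside 4.01% of all probe sets called lower. The difference between classes was not tested. The highest share was that of ribosomal proteins and RNA polymerase, where 9 of 17 genes fell, with a median of -0.99. With 1 array left out this class had 0 to 8 calls. Examples are rpl22 (4693, 8483 and 4746 at 48 h and 2290.5, 1477 and 2512 at 96 h, log2 change -1.48 ± 0.336, adjusted p = 0.00557), rpl16 (-1.49, adjusted p = 0.0135), rpl14 (-1.44, adjusted p = 0.0104) and the polymerase subunits rpoA (-1.16, adjusted p = 0.0445), rpoC1 (-1.14, adjusted p = 0.0248) and rpoC2 (-1.21, adjusted p = 0.0388). Of 28 genes of photosystems and cytochromes 4 fell (median -0.76), namely psbC (-1.49, adjusted p = 0.0172), psaI (-1.34, adjusted p = 0.0422), ccsA of cytochrome c assembly (-1.41, adjusted p = 0.00726), which had overlapping values, and psbZ. The last gave 4873, 5386 and 4621.5 at 48 h and 2229, 2055 and 2346 at 96 h (log2 change -1.16 ± 0.219, adjusted p = 0.0011). Of 9 NDH genes ndhA (-1.35, adjusted p = 0.0382) and ndhI (-1.01, adjusted p = 0.0176) fell, with a median of -1.01, and of 6 ATP synthase genes atpA (-1.20, adjusted p = 0.0119), with a median of -0.58. The gene of the large Rubisco subunit, rbcL, gave 2449, 2142 and 1603 at 48 h and 873, 844 and 932 at 96 h (log2 change -1.18 ± 0.235, adjusted p = 0.00162). The envelope protein gene cemA was called as well (-1.51, adjusted p = 0.0409).

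The number of plastid calls moved with the arrays used. Without replicate 3 at 48 h 17 were called with a median of -0.88, but 11 without replicate 1 and 5 without replicate 2 at 48 h, and 12, 4 and 10 without replicate 1, 2 or 3 at 96 h. Without replicate 2 at 48 h the calls of rpl22 (-1.20, adjusted p = 0.0589), rpl16 (-1.35, adjusted p = 0.0735), rpl14 (-1.31, adjusted p = 0.0622), psbC (-1.26, adjusted p = 0.113), cemA (-1.08, adjusted p = 0.26), psaI (-1.11, adjusted p = 0.197), ndhA (-1.17, adjusted p = 0.169), rpoC1 (-0.80, adjusted p = 0.206), rpoA (-1.08, adjusted p = 0.154), rpoC2 (-1.08, adjusted p = 0.161) and ndhI (-0.95, adjusted p = 0.0796) were lost. Without replicate 2 at 96 h ccsA (-1.14, adjusted p = 0.0652) and atpA (-0.96, adjusted p = 0.0906) were not called either. The 14 genes with mitochondrial names, which may share probes with near-identical nuclear copies and are uncertain, had a median of 0.13, and none was called or had an unadjusted p under 0.05.

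**Figure D4:**
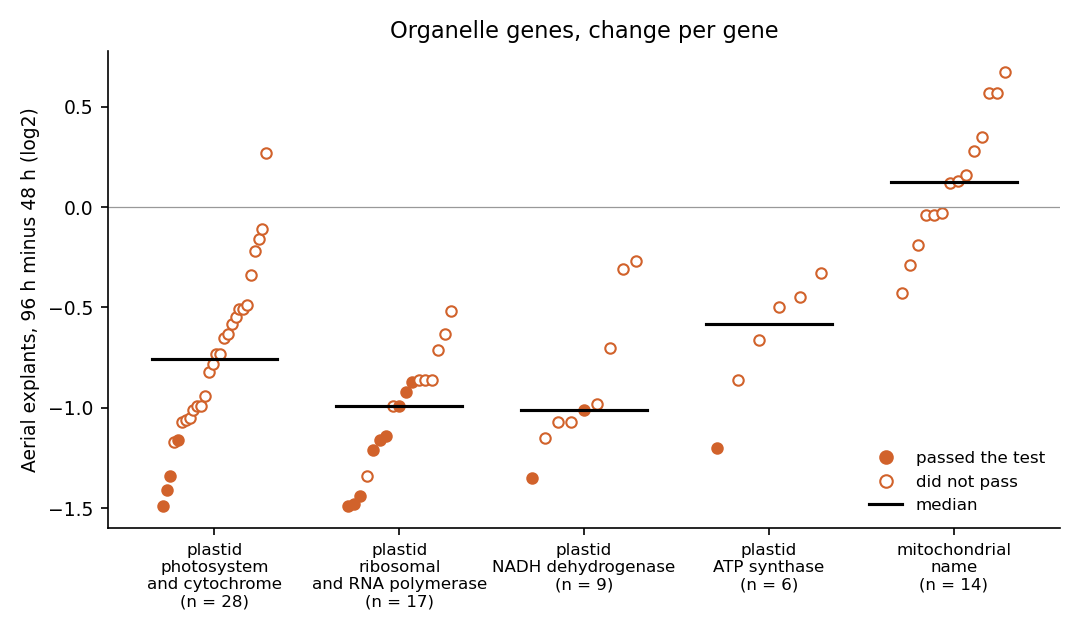
Change from 48 h to 96 h in aerial explants (log2 of signal + 22) of each gene in 4 classes of plastid-encoded genes and of the 14 genes with mitochondrial names, filled where the test was passed, with each class's median as a bar. The medians of the plastid classes lie between -1.01 and -0.58 and that of the mitochondrial names at 0.13.

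A few genes of cell division rose by small amounts. Of 35 loci of mitosis and cytokinesis 8 were measured and 3 rose, against 3.75% of all probe sets, with a median of 0.70 for the 8. AUR3 (AT2G45490), an Aurora kinase of chromosome segregation, gave 67.8, 32 and 82.7 at 48 h and 159, 139.5 and 170.4 at 96 h (log2 change 1.16 ± 0.314, adjusted p = 0.02). WYR (AT5G55820), the plant relative of the inner centromere protein that partners Aurora kinases, changed by 1.12 (adjusted p = 0.044), and BUB3.1 (AT3G19590), of the spindle checkpoint, by 0.85 (adjusted p = 0.0169). The kinases AUR1 (AT4G32830) (0.69, adjusted p = 0.0773) and AUR2 (AT2G25880) (0.70, adjusted p = 0.102), the checkpoint gene BUBR1 (AT2G33560) (0.41, adjusted p = 0.613) and the centromeric histone HTR12 (AT1G01370) (0.36, adjusted p = 0.524) did not pass. The summed signal of the 8 was 1472 to 1868 at 48 h and 2690 to 2980 at 96 h, with no overlap, against 1538 to 1917 at 0 h and 4778 to 5524 in root explants at 96 h. The calls moved with the arrays used: 3 were called without replicate 3 at 48 h (median 0.76), 1 without replicate 1 at 48 h, replicate 1 at 96 h or replicate 2 at 96 h, and 0 by limma without replicate 2 at 48 h or replicate 3 at 96 h. The adjusted p of AUR3 without replicate 2 at 48 h was 0.162, that of WYR 0.183 and that of BUB3.1 0.0766. No member was called with the 15 aerial arrays alone (adjusted p = 0.0529 to 0.0726 for the 3), and 1 with a pseudocount of 1.

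Other genes of proliferation were few on the list of measured names, and the share of all probe sets called higher was 3.75%. Of 4 DNA replication genes PRL (AT4G02060), a subunit of the MCM helicase, rose by 0.89 ± 0.21 (adjusted p = 0.00757), while PSF2 (AT3G12530) of the GINS complex (0.57, adjusted p = 0.207) and the polymerase subunits ICU2 (AT5G67100) (0.24, adjusted p = 0.686) and POLD3 (AT1G78650) (0.33, adjusted p = 0.55) did not pass. Among 4 histone genes HTB2 (AT5G22880), a histone H2B, rose from 961, 971 and 1021 to 2217.5, 1681 and 2284 (log2 change 1.04 ± 0.191, adjusted p = 0.000844). The 96 h arrays stood clear of the 48 h arrays, and the call held without each of the 6 arrays in turn. The histones did not rise as a group: 2 of the 4 were lower in sign, the lowest at -0.83, and the median was 0.12. Of 7 ribosome biogenesis genes none was called (median 0.32, 2 with an unadjusted p under 0.05 by limma).

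Regulators of root meristems, primordia and hormone responses changed in a few members. Of 23 loci of root meristem and primordium 8 were measured and 2 rose, BBM and AGL21, against 3.75% of all probe sets, with a median of 0.58. The count was 3 without replicate 3 at 48 h (median 0.71). UPB1 (AT2G47270), a factor at the exit from the meristem, gave 1.01 (adjusted p = 0.0528), JKD (AT5G03150), of ground tissue patterning, 0.82 (adjusted p = 0.183) and PUCHI (AT5G18560), of lateral root initiation, -0.27 (adjusted p = 0.685). PUCHI had risen in the preceding step (1.14, adjusted p = 0.0397). Among 7 measured genes of the list of key genes of callus and regeneration BBM rose. RCA, the Rubisco activase described above as the mesophyll marker, is also on this list and fell. The other members were LBD29 (AT3G58190) (0.95, adjusted p = 0.208) and LBD16 (AT2G42430) (-0.11, adjusted p = 0.883), auxin targets at the start of callus and lateral roots, GH3.3 (AT2G23170), which conjugates auxin (0.40, adjusted p = 0.556), PUCHI, and ARR15 (AT1G74890), a cytokinin-induced response regulator (0.63, adjusted p = 0.396). LBD29 gave 948, 1413 and 802 at 48 h and 1654, 2395 and 2001 at 96 h, values that do not overlap although the test was not passed. Of 8 early auxin genes only IAA30 was called (median 0.34), and of the cytokinin response genes measured, ARR15 and RR16 (AT2G40670) (0.19, adjusted p = 0.837), none was (0 with an unadjusted p under 0.05).

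Of 6 measured genes of leaf, stomatal and trichome identity 1 was called, beside 7.77% of all probe sets. By sign 5 of them were lower, where 48% of all probe sets were, and the median was -0.26. PHV (AT1G30490), an HD-ZIP factor of the upper leaf side that also acts in meristems and vasculature, rose by 1.01 ± 0.271 (adjusted p = 0.0191), and its call was lost without replicate 1 or 2 at 48 h (adjusted p = 0.141 and 0.0864) or replicate 2 or 3 at 96 h (0.0735 and 0.051). YAB3 (AT4G00180), of the lower leaf side, gave -0.83 (adjusted p = 0.14), YAB5 (AT2G26580) -0.37 (adjusted p = 0.58) and SPCH (AT5G53210), which starts the stomatal lineage, -0.15 (adjusted p = 0.856). TRY gave -0.59 (adjusted p = 0.566) and FMA -0.05 (adjusted p = 0.96).

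Of 15 expansins, proteins that loosen walls, 2 rose and 2 fell, beside 3.75% higher and 4.01% lower among all probe sets. They were EXPA9 (AT5G02260) (1.15, adjusted p = 0.0106) and EXPA4 (AT2G39700) (0.73, adjusted p = 0.046) against EXPB1 (AT2G20750) (-1.28, adjusted p = 0.0439) and EXPA16 (AT3G55500) (-1.20, adjusted p = 0.0367). Of these, EXPA16 had overlapping values. EXPA9 gave 1162, 388 and 975 at 48 h and 1899, 1765 and 1511 at 96 h, and was not called without replicate 2 at 48 h (0.68, adjusted p = 0.145). Without that array EXPA4 (0.72, adjusted p = 0.13), EXPB1 (-0.79, adjusted p = 0.323) and EXPA16 (-0.95, adjusted p = 0.202) were not called either, and EXPA4 and EXPA16 also lost the call without replicate 1 at 48 h (adjusted p = 0.16 and 0.2) or any 1 of the 96 h arrays. EXPB1 lost it without replicate 1 or 2 at 96 h (0.196 and 0.0959). XTH20 was the only one of 7 xyloglucan enzymes called.

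Of 31 UDP-glycosyltransferases 3 rose and 1 fell, beside 3.75% higher and 4.01% lower among all probe sets. They were UGT73B4, UGT85A2 (AT1G22360) (1.0, adjusted p = 0.02) and UGT76C2 (AT5G05860), which glucosylates cytokinins (0.59, adjusted p = 0.0438), against UGT88A1 (AT3G16520) (-1.0, adjusted p = 0.00605). UGT88A1 was not called without replicate 1 at 48 h (-0.70, adjusted p = 0.0833). UGT85A2 was not called without replicate 1 or 2 at 48 h (adjusted p = 0.0672 and 0.188) or replicate 1 at 96 h (0.0844), nor UGT76C2 without replicate 2 at 48 h (0.38, adjusted p = 0.303) or any 1 of the 96 h arrays (0.0892 to 0.137). Of 11 glutathione transferases GSTU18 and GSTF4 (AT1G02950) fell, GSTF4 by 1.01 (adjusted p = 0.044), a call lost without any 1 of the 48 h arrays (adjusted p 0.0894 to 0.123) or replicate 1 or 2 at 96 h (0.0694 and 0.295). Among 12 cytochromes P450, 12 sugar transporters and 5 WRKY factors none was called. In these families 3, 3 and 0 members had an unadjusted p under 0.05 by limma. Of 12 MADS factors 1 rose, AGL21, and 1 fell, AGL87 (-1.25, adjusted p = 0.035). AGL87 lost its call when any 1 of the 6 arrays was left out (adjusted p 0.0652 to 0.112).

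Genes of stress, defence and senescence changed in single members, beside 3.75% of all probe sets called higher and 4.01% lower. Among 4 chitinases and thaumatins, OSM34 and ChiC (AT4G19810), a class V chitinase, rose (1.24 for ChiC, adjusted p = 0.0332). In the preceding step 3 of the 4 were called higher, beside 2.94% of all probe sets. ChiC had overlapping values and lost the call without replicate 1 or 2 at 48 h (adjusted p = 0.115 and 0.224) or replicate 2 or 3 at 96 h (0.184 and 0.105). Among 18 other proteases the carboxypeptidases scpl48 (AT3G45010) (1.04, adjusted p = 0.00609) and SCPL45 (AT1G28110) (0.67, adjusted p = 0.029) rose, scpl48 not without replicate 1 at 48 h (0.87, adjusted p = 0.0574) or replicate 2 at 96 h (0.88, adjusted p = 0.0511), and SCPL45 not without any 1 of the 48 h arrays (adjusted p 0.0606 to 0.0871) or replicate 2 or 3 at 96 h (0.0957 and 0.118). Of 5 senescence genes ALPHA-VPE rose, and SAG29 (AT5G13170), a sugar exporter of the SWEET family, gave 1.11 (adjusted p = 0.201) after 3.52 in the preceding step (adjusted p = 6.71e-05). Without replicate 3 at 48 h the median of the 5 went from 0.40 to 0.90, with 1 called. COR15B (AT2G42530), a cold-regulated chloroplast protein, fell by 1.42 (adjusted p = 0.0489) and AT4G17260, of the hypoxia list, rose by 0.87 (adjusted p = 0.0452). COR15B lost its call without any 1 of the 48 h arrays (adjusted p 0.0541 to 0.272) or replicate 1 or 3 at 96 h (0.0522 and 0.309), and AT4G17260 without any 1 of the 6 arrays (0.0626 to 0.195). Heat shock genes had no call among 3 and none with an unadjusted p under 0.05.

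The same step was then set against root explants, whose own 3 arrays at 48 h and 96 h were not shared with the aerial step. Whether the 2 organs were cut from the same seedlings was not examined. In roots 1194 probe sets changed (7.12%), 623 higher (3.72%) and 571 lower (3.41%), or 490 and 707 of 1197 with arrays centred. The difference between the aerial and the root step, tested as an interaction in the same fit, was called for 1296 probe sets (7.73%). Of these 614 (3.66%) had the higher change in aerial explants and 682 (4.07%) the lower. With arrays centred the split was 756 higher and 527 lower of 1283, a shift of 0.101 in the median of all probe sets. The count fell to 843 without aerial replicate 2 at 48 h and to 852 without root replicate 3 at 96 h, and the root count to 661 and 636 without root replicate 2 or 3 at 48 h and to 755 and 673 without replicate 2 or 3 at 96 h.

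For ARPN and BBM the changes in both organs differed by close to 0. ARPN changed by 2.22 in roots (adjusted p = 0.000414), with a difference of -0.02 ± 0.549 (adjusted p = 0.991), and BBM by 1.97 (adjusted p = 0.00287), with a difference of -0.05 ± 0.59 (adjusted p = 0.977). Their root signals were 1458, 332 and 600.5 and then 4251, 2527 and 3003 for ARPN, and 224, 69.3 and 122 and then 619.9, 454 and 619 for BBM. A p over the threshold does not show that the organs act alike. HTB2 rose in both (0.73 in roots, adjusted p = 0.0163). IQD16 rose in roots by 2.25 (adjusted p = 0.000778).

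The largest differences with a higher change in aerial explants came mostly from genes that fell in roots. SAG29 gave 1929, 2018 and 1973 and then 3372, 6587 and 3570.1 in aerial explants but 1270.5, 1694 and 1767 and then 167, 212 and 147 in roots. The aerial arrays did not overlap, the root arrays fell clear of each other in the opposite direction, and the difference was 4.13 ± 0.725 (adjusted p = 0.000649). LBD29 gave 1411.5, 2038 and 1711 at 48 h and 230, 308 and 209.8 at 96 h in roots, where it fell by 2.68 (adjusted p = 0.000214), against the values above in aerial explants, and the difference was 3.63 ± 0.625 (adjusted p = 0.000566). ALPHA-VPE fell in roots from 493, 268 and 454 to 118, 116 and 110.2 and had a difference of 2.96 ± 0.493 (adjusted p = 0.000432). HHP2 (2.93 ± 0.513, adjusted p = 0.000649), CXE18 (AT5G23530), a carboxylesterase (2.54 ± 0.311, adjusted p = 1.65e-05), and PAP20 (AT3G52780) (2.35 ± 0.555, adjusted p = 0.00829) followed. CXE18 rose in aerial explants (1.12, adjusted p = 0.00147) and fell in roots (-1.42, adjusted p = 0.000112). PAP20 passed in neither step alone (adjusted p = 0.0717 and 0.0595).

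The differences with a lower change in aerial explants were led by chloroplast genes. PSB27 fell in aerial explants from 5403, 4701 and 2778 to 1340.4, 1664 and 1320 and rose in roots from 117, 70.9 and 73.1 to 214, 251 and 191, a difference of -2.68 ± 0.432 (adjusted p = 0.00033). AT4G01150 fell in aerial explants and rose in roots (0.80, adjusted p = 0.0151), with a difference of -2.29 ± 0.293 (adjusted p = 2.12e-05). PRK (-2.48 ± 0.58, adjusted p = 0.00774), CaS (-2.44 ± 0.51, adjusted p = 0.00312) and LHCB4.2 (-2.28 ± 0.536, adjusted p = 0.00794) had root changes that did not pass, with root means of 3.5 and 20.4 for PRK, 29.0 and 21.8 for CaS and 33.4 and 70.1 for LHCB4.2 at 48 h and 96 h, and with a pseudocount of 1 their differences did not pass either (-3.68 with adjusted p = 0.0721, -2.98 with 0.0719 and -3.14 with 0.0569). scpl25 (AT3G02110), a carboxypeptidase, is of another kind: it rose in roots from 679.6, 504 and 531 to 2144, 2245 and 1849 (adjusted p = 8.84e-07) and gave -0.37 in aerial explants (adjusted p = 0.293), a difference of -2.2 ± 0.285 (adjusted p = 2.16e-05).

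Over the lists, the difference was called for 4 of 7 photosystem and antenna genes, 4 of 6 Calvin cycle and photorespiration genes and 3 of 5 of chlorophyll synthesis, against 4.07% of all probe sets lower. For 6 of these 11 genes the mean root signal was under the 87.4 of the filter at both times, so a fall in roots could hardly be measured there and the difference mostly repeats the aerial fall. With a pseudocount of 1, 4 of the 11 were called, which are 1 of 7, 2 of 6 and 1 of 5 for the lists. PSAE-1 of the photosystem list had no called difference, with a root change of -1.65 (adjusted p = 0.00119) beside -1.63 in aerial explants. Without aerial replicate 1 at 48 h the differences of LHCB4.1, PSBW, HPR, RCA, AT1G11860, PORB and CHLM were not called. Of the 65 plastid-encoded genes 2 had a called difference and none was called in roots (2 with an unadjusted p under 0.05). No member of the mitosis list had a called difference, and none was called in roots (2 with an unadjusted p under 0.05).

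**Figure D5:**
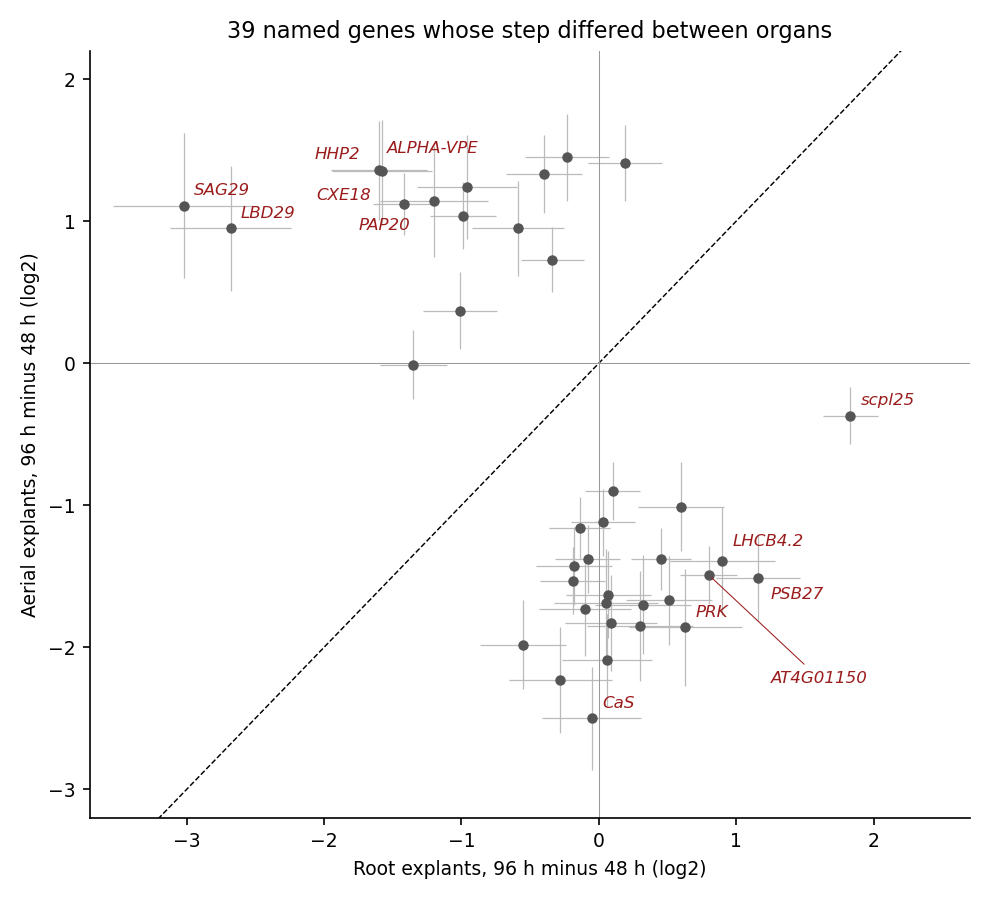
Change from 48 h to 96 h in root explants (horizontal, log2 of signal + 22) against the same change in aerial explants (vertical) for the 39 named genes with a called difference, with standard errors as bars and the dashed line where both changes are equal. SAG29, LBD29, HHP2 and ALPHA-VPE lie in the upper left, higher in aerial and lower in root explants, and PSB27, CaS and PRK lie below the line.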

How the data were processed

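Total RNA was extracted with guanidine thiocyanate and about 5 µg were labelled with biotin and hybridised to 30 one-colour Affymetrix arrays, per the labels' protocols. The deposited table holds 1 MAS5 intensity (signal) per probe set and array, made by the authors with MAS5 per the submitters' processing notes, which name no version. In the values the mean of each array after trimming 2% at each end was 500 to 500.1, so each array is scaled to 1 mean, and no detection calls were used. Replicates were not pooled. For arrays, their number (3 a group) limits the precision.

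Control probe sets (64) were removed. Of the remaining 22746, the 16765 with a signal above 87.4 (the 40th percentile of all signals) in at least 3 arrays were tested, and 5981 were not. Signals were put on a log2 scale with a pseudocount of 22, the 20th percentile. limma 3.58.1 in R 4.3.3 fitted 1 mean per group over all 30 arrays, with empirical Bayes moderation and a variance trend. The contrasts were 96 h against 48 h in aerial and in root explants, the difference of those steps, and 48 h against 24 h in aerial explants. The fit was checked on simulated data with known changes.

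Probe sets were named through the platform annotation: of those tested, 9188 had 1 gene, 331 several and 7246 none. The latter are counted and not named. "Measured" members of a list are genes with a tested probe set that carries 1 gene; where several did, the probe set with the highest mean was used. Named were the 14 largest rises and 14 largest falls among called genes with a symbol or a described product and values that do not overlap between 48 h and 96 h (119 of 1323 such genes met this), the 6 largest differences from roots each way, up to 6 called members of each gene list or family (uncalled ones where 6 or fewer were measured), and key genes of callus formation. The members and lists were chosen with earlier results of these data known, and the plastid and mitochondrial lists after values were seen.

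The alternatives tried were other pseudocounts (1 and 64), no filter, arrays centred on their medians, quantile normalization, fits on fewer arrays, no variance trend, a replicate block, no probe sets with _s_at or _x_at names, and each array left out in turn. The labels name no array batch or scan date.

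The labels state no block, and the replicate numbers were not taken as pairs. Deviations from the group means at 48 h and 96 h were correlated between arrays. For the same number the values were 0.144, -0.032 and 0.044 in aerial and 0.283, 0.276 and 0.009 in root explants. For other numbers they ran from -0.142 to 0.124 in aerial and from -0.338 to 0.094 in root explants. Whether the numbers mark pairs was thus not settled.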

Additional observations from a re-analysis of the deposited data

Results flagged for a closer look

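Of the named genes, 39 had a change from 48 h to 96 h that differed between aerial and root explants by limma's interaction test (adjusted p under 0.05). The values below are the aerial minus the root change on the log2 scale. Over all probe sets 7.73% were called, but the 39 cannot be read against that share. The 6 largest differences each way were named for this same test. Many others were named for a called aerial change, which is a part of the difference. Groups of 3 arrays were not tested for single outlying samples.

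Of these, 15 were higher in aerial explants. The differences were 4.13 for SAG29, 3.63 for LBD29, 2.96 for ALPHA-VPE, 2.93 for HHP2, 2.54 for CXE18, 2.35 for PAP20, 2.2 for ChiC and 2.03 for scpl48. They were 1.72 for MT1C, 1.68 for JAL33, 1.54 for PDF1.2, 1.37 for SIM, 1.34 for AT5G61890, 1.22 for AGL21 and 1.07 for EXPA4. When each of the 12 arrays of this comparison was left out in turn, the call ended in 10 cases for EXPA4, 9 for AGL21, 8 for PDF1.2, 6 for SIM, 2 for AT5G61890 and 1 for JAL33.

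The other 24 were lower in aerial explants. The differences were -2.68 for PSB27, -2.48 for PRK, -2.44 for CaS, -2.29 for AT4G01150, -2.28 for LHCB4.2, -2.2 for scpl25, -2.17 for TAPX, -2.15 for ECS1, -2.14 for PSAN and -2.02 for GSTU18. They were -1.96 for HPR, -1.92 for TROL, -1.83 for AT1G74470, -1.74 for CIL, -1.70 for NdhL, -1.63 for PORB, -1.61 for GSTF4, -1.43 for AT1G52220 and -1.34 for LHCB4.1. For RCA the difference was -1.29, for PSBW -1.26, for CHLM -1.15, for psbZ -1.02 and for AT1G11860 -1.0. The call ended in 11 of the 12 cases for psbZ, 9 for AT1G52220 and CIL, 8 for CHLM and PSBW, 7 for AT1G11860 and PORB, 4 for HPR and RCA, 3 for GSTF4, 2 for NdhL and 1 for LHCB4.1 and TROL. The other 20 of the 39 differences kept their call in all 12 cases. With a pseudocount of 1, however, 18 of the 39 were not called by limma. Of the 20, CaS, ECS1, GSTU18, LHCB4.2, PRK and PSAN were among them. The difference of AT1G52220 became -0.37 (adjusted p = 0.863) in that setting. Weak root signals, given above for PRK, CaS and LHCB4.2, limit what such differences show.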

How the results depend on the processing

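None of the values called for named genes turned its sign under any alternative tried. Of the 76 named genes called in aerial explants, 76 were still called with a pseudocount of 64, 76 without _s_at and _x_at probe sets, 72 with arrays centred, 74 with quantile normalization, 69 without the variance trend, 65 without the filter, 65 with the 6 arrays alone, 58 with the 15 aerial arrays and 43 with a pseudocount of 1, and 43 to 67 when 1 array was left out. Of 15 genes that were not called, 27 values had the other sign under some alternative, all between -0.17 and 0.43. Of the 39 differences from roots, 21 were still called with a pseudocount of 1 and 24 to 38 with 1 array left out. The number of probe sets called in the late aerial step was 739 with a pseudocount of 1 and 645 to 1589 with 1 array left out. The difference from roots gave 842 with a pseudocount of 1 and 843 to 1702, the root step 636 to 1090, and the preceding aerial step 464 with the 15 aerial arrays and 247 to 854 with 1 array left out. The spread is pooled over all 30 arrays, so root arrays with weak signals also enter the test of the aerial step. The causes of these moves were not tested.

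The pairing by replicate number was tried as a block although the numbers were not taken as pairs: it gave 1690 probe sets for the late aerial step, 1532 for the root step, 1777 for their difference and 1030 for the preceding step. Without the block the counts were 1302, 1194, 1296 and 729. Root replicates 1 and 2 and aerial replicate 1 at 48 h correlated best with their own number at 96 h (0.283, 0.276 and 0.144). Aerial replicates 2 and 3 and root replicate 3 at 48 h correlated best with another number (0.017, 0.124 and 0.094).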
